A study of Mus musculus with 6 samples.

Results

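The genes described here are 10 components of the epithelial tight junction: the claudins Cldn2, Cldn3, Cldn4, Cldn7, Cldn15 and Cldn23, the membrane proteins Ocln (occludin) and F11r (junctional adhesion molecule A), and the scaffold proteins Tjp1 and Tjp3 (ZO-1 and ZO-3). They were taken by symbol from a count table of 23565 mouse genes, and all 10 were found and passed the filter on low counts, which left 12439 genes. The table holds RNA sequencing of 6 libraries of epithelial cells sorted from crypts of the mouse small intestine. In the Hopx-CreER group, 3 libraries came from tdTomato+ cells of HopXCreER::Rosa26LSL-tdTomato mice. In the Lgr5-CreER group, 3 libraries came from sorted cells with both eGFP and tdTomato, taken from Lgr5eGFP-IRES-CreER::Rosa26LSL-tdTomato mice. All mice carried a Rosa26 reporter that makes the red protein tdTomato once the tamoxifen-dependent recombinase CreER has acted, and each was given 1 mg of tamoxifen 16 hours before harvest, with 3 mice of each genotype in the series description. The recombinase is driven from the Hopx locus in one line and from the Lgr5 locus in the other. Genotype and sorting gate therefore differed together and cannot be told apart. No source used here gives the age of the mice.

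Tight junctions seal the space between neighbouring epithelial cells near their apical side and set which ions and molecules pass between the cells. Claudins are small membrane-spanning proteins that form the strands of the junction. Some claudins, such as claudin 2 and claudin 15, form channels for cations and water, and others are known mainly for tightening the seal. Occludin and the junctional adhesion molecules are further membrane proteins of the junction, and the ZO proteins tie the strands to the actin cytoskeleton. In the small intestine claudin 2 is known as a claudin of the crypt, and claudin 15 is found along the crypt and the villus.

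The libraries held between 10839306 and 14570555 counts each. Levels are given as CPM, the counts scaled by library size with the TMM factors of edgeR, where a single count corresponds to 0.0669 to 0.0928 CPM, and intervals from counts cover counting error only. The columns carry no replicate number, so libraries are numbered within a group by their order in the table, and the labels do not link libraries to mice. Lgr5-CreER libraries 2 and 3 have the same number in their column names. Their log2 difference over 8165 genes varied with an SD of 0.258, and the other pairs of 1 group had SDs of 0.325 to 0.587. Their counts still differed by more than sampling noise (chi-square per degree of freedom 8.96), which cannot tell separate mice from separate preparations of a single mouse. They were kept as 2 libraries. The p-values set the difference between groups against the spread between libraries within a group, which may in part be technical. On the second principal component (18.1% of the variance), Hopx-CreER library 3 lay far from the other Hopx-CreER libraries, and its column carries a tag of unstated meaning. Hopx was lower in Hopx-CreER cells (54.3 ± 9.65 against 89.8 ± 3.94 CPM, SD, n = 3; edgeR adjusted p 0.0131), as was Lgr5 (41.4 ± 17.7 against 107.8 ± 3.93 CPM; edgeR adjusted p 0.0147). Epithelial markers were abundant in every library (8 of 8 detected), with a summed level of 16536 to 17747 CPM in Hopx-CreER and 11117 to 11887 CPM in Lgr5-CreER libraries and 3 of 8 higher by edgeR. The summed level of 10 immune markers was 2.71 to 6.86 CPM in Hopx-CreER and 2.48 to 3.44 CPM in Lgr5-CreER libraries, that of 6 endothelial markers 4.82 to 8.88 and 5.35 to 6.61 CPM with Cdh5 at 0, and that of 6 glial and neuronal markers 1.48 to 3.97 and 1.47 to 1.58 CPM with Elavl4 at 0. Of 6 stromal and muscle markers, whose sum was 27.9 to 37.5 CPM against 5.16 to 6.63 CPM, Vim made up most of the Hopx-CreER level (23.8 to 33.2 CPM) and Col1a1 was at 0.

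Of the 10 tight junction genes, Cldn2 and Ocln were higher in every Lgr5-CreER library, and Cldn3, Cldn23 and F11r in every Hopx-CreER library, Ocln and F11r by small margins. The low-count genes Cldn4 and Tjp1 had log2 fold changes of 1.12 and -1.26 with overlapping groups, and the abundant Cldn7, Cldn15 and Tjp3 differed little. The genes were selected on their fold changes and levels in an earlier analysis of these same libraries, so their differences are given as a description with no test. At an edgeR adjusted p under 0.05, 3 of the 10 genes passed (2 higher and 1 lower in Hopx-CreER cells), where 12.8% of all tested genes passed, 9.45% higher and 3.3% lower. The groups did not overlap for 5 of the 10 genes, against 34.9% of all tested genes. Nothing is read from these counts. Log2 fold changes are of Hopx-CreER over Lgr5-CreER cells throughout, and their median was 0.13 over the 10 genes and -0.03 over all tested genes.

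**Figure D1:**
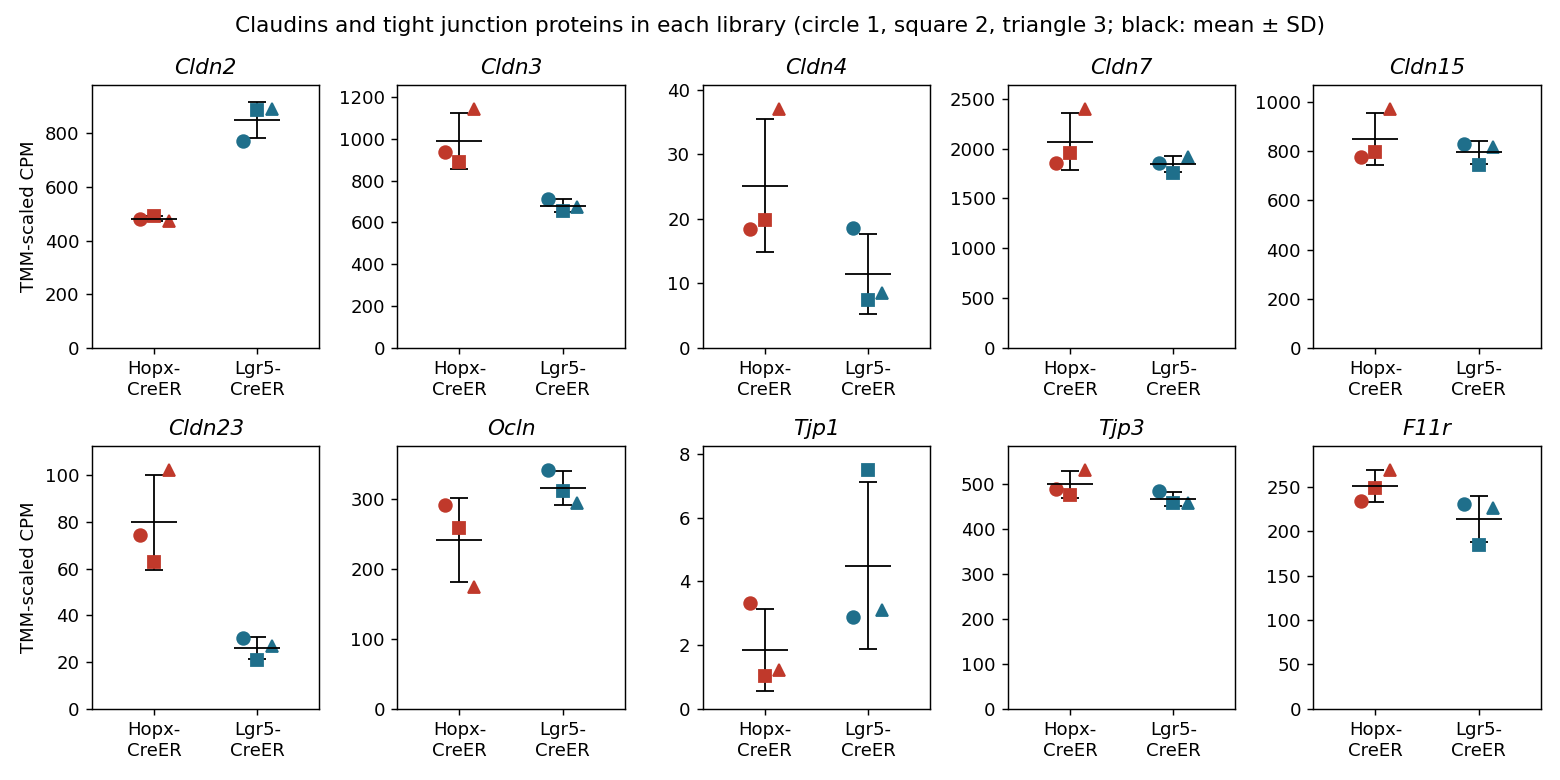
TMM-scaled CPM (vertical axis, linear from 0) of the 10 tight junction genes in each of the 3 Hopx-CreER (red) and 3 Lgr5-CreER (blue) libraries, with the mean and SD of each group in black and library 1, 2 and 3 as circle, square and triangle. The groups are apart for Cldn2, Cldn3, Cldn23, Ocln and F11r, and the Hopx-CreER values of Cldn2 lie close together, from 473 to 494 CPM.

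Among the channel-forming claudins, Cldn2 (ENSMUSG00000047230.6; plus strand of chromosome X, 139800828 to 139811386, GRCm38) was at 481, 494 and 473 CPM in Hopx-CreER libraries 1, 2 and 3 and at 773, 889 and 891 CPM in Lgr5-CreER libraries 1, 2 and 3. Every Lgr5-CreER library was above every Hopx-CreER library, and the Hopx-CreER libraries differed little from each other, library 3 included. The level was 1.76-fold higher in Lgr5-CreER cells (log2 fold change -0.82 ± 0.10, SE), and 5.84% of tested genes had a lower log2 fold change. In bulk RNA, fewer cells that express a gene and less of its RNA per cell cannot be told apart, here and for the other genes.

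Cldn15 (ENSMUSG00000001739.14; plus strand of chromosome 5, 136966616 to 136975858) was at 778, 799 and 973 CPM in the Hopx-CreER and at 829, 743 and 816 CPM in the Lgr5-CreER libraries. The groups overlapped, with the highest value in Hopx-CreER library 3 (log2 fold change 0.09 ± 0.12). Cldn2 was thus lower relative to Cldn15 in Hopx-CreER cells, and their ratio shows this without any scaling between libraries. Per kilobase of exon, the ratio of Cldn2 to Cldn15 was 0.395, 0.395 and 0.310 in the Hopx-CreER and 0.596, 0.765 and 0.698 in the Lgr5-CreER libraries.

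Of the other claudins, Cldn3, known for tightening the seal (ENSMUSG00000070473.4; plus strand of chromosome 5, 134986214 to 134987472) was at 935, 889.9 and 1144 CPM in the Hopx-CreER and at 714, 653 and 674 CPM in the Lgr5-CreER libraries. The groups did not overlap, and Hopx-CreER library 3 was the highest. The log2 fold change was 0.54 ± 0.12 (SE), a level 1.45-fold higher in Hopx-CreER cells. It was 0.41 without Hopx-CreER library 3, and smaller with offsets for transcript GC content (0.28) or transcript length (0.24).

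Cldn4 (ENSMUSG00000047501.3; minus strand of chromosome 5, 134945119 to 134946934), a claudin of many other epithelia, was low, at 245, 235 and 399 counts (18.5, 19.9 and 37.0 CPM) in the Hopx-CreER libraries. In the Lgr5-CreER libraries it had 278, 85 and 123 counts (18.6, 7.34 and 8.47 CPM). Lgr5-CreER library 1 lay within the Hopx-CreER range, so the groups overlapped. The log2 fold change of 1.12 ± 0.40 depended on single libraries: it was 1.66 without Lgr5-CreER library 1 and 0.72 without Hopx-CreER library 3.

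Cldn7 (ENSMUSG00000018569.12; plus strand of chromosome 11, 69964779 to 69967885), a claudin that binds the cell adhesion protein EpCAM, was the most abundant of the 10 genes. It was at 1855, 1958 and 2399 CPM in the Hopx-CreER and at 1855, 1754 and 1917 CPM in the Lgr5-CreER libraries. The groups overlapped, with Hopx-CreER library 3 above the rest (log2 fold change 0.17 ± 0.12, and 0.04 without that library). Epcam itself was at 2207 ± 189 against 2251 ± 134 CPM.

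Cldn23 (ENSMUSG00000055976.6; minus strand of chromosome 8, 35824712 to 35826559), known from differentiated cells of the gut surface, had the most positive log2 fold change of the 10 genes. It was at 74.5, 62.9 and 103 CPM in the Hopx-CreER and at 30.1, 20.8 and 26.7 CPM in the Lgr5-CreER libraries. The lowest Hopx-CreER value was above every Lgr5-CreER value, and Hopx-CreER library 3 was again the highest. The level was 3.08-fold higher in Hopx-CreER cells (log2 fold change 1.62 ± 0.21), and 1.39 on the log2 scale without Hopx-CreER library 3. Across all 14 alternative settings the value stayed between 1.37 and 1.77.

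Markers of differentiated cells also differed between the groups, and their part in the claudin differences was not tested. Over all tested genes, 9.45% were higher and 3.3% lower in Hopx-CreER cells by edgeR. All 10 enterocyte markers were higher in Hopx-CreER cells by edgeR, with a summed level of 1602 to 3325 CPM against 483 to 691 CPM, highest in Hopx-CreER library 3. All 10 Paneth markers were higher too (15041 to 33030 against 1670 to 3253 CPM, again highest in library 3). Of the goblet, enteroendocrine and tuft markers, 9 of 10, 8 of 9 and 8 of 10 tested genes were higher, with sums of 7336 to 11081 against 2113 to 2813 CPM, 2453 to 6879 against 146 to 257 CPM, and 228 to 937 against 106 to 157 CPM. Library 3 was not the highest for these: the goblet and enteroendocrine sums peaked in Hopx-CreER library 2. The tuft sum was lowest in Hopx-CreER library 3 among the libraries of that group. All 10 Lgr5 stem cell markers were lower (3426 to 5273 against 10807 to 11319 CPM, lowest in Hopx-CreER library 3). The lists were written with earlier results of these libraries known and are no independent evidence of a direction.

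The promoter windows of Cldn2, Cldn3 and Cldn4 are shown because Cldn2 and Cldn3 differed in opposite directions and because Cldn3 and Cldn4 are neighbours, transcribed away from each other with 39279 bases between them. Each window, from RefSeq on GRCm38.p6, runs from 250 bases before to 50 bases after a RefSeq start, 5′ to 3′ on the gene's strand. Distances are counted from that start, which can differ from the gene boundary given in this text, as it does slightly for Cldn2. The windows of Cldn15 and Tjp1 lie wholly inside the genes as positioned here. The windows lie at chrX:139800558-139800857 (plus strand), chr5:134985964-134986263 (plus strand) and chr5:134946885-134947184 (minus strand). Capitals mark matches, on either strand, to 6 short motifs that are spelled out after the sequences.
Cldn2: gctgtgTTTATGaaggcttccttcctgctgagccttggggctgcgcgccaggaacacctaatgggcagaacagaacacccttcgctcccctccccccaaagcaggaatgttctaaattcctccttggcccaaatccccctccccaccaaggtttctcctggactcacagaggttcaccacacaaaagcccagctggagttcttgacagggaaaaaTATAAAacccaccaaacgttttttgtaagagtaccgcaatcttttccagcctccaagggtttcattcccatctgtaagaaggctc
Cldn3: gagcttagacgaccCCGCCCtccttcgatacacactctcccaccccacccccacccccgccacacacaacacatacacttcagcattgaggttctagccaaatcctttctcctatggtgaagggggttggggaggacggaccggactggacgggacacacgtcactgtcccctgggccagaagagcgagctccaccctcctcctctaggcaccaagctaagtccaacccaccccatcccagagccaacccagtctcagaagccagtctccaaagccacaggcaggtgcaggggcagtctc
Cldn4: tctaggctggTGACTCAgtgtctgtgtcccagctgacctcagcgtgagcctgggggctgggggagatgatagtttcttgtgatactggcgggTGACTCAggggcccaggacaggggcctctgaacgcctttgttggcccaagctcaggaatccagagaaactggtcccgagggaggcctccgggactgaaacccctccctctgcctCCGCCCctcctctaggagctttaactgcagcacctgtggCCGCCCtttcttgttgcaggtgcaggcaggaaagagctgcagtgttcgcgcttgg
The Cldn2 window held the letters TTTATG, a motif of CDX factors, which begin 244 bases before the start and were found in 11.9% of all 32851 RefSeq windows. It also held TATAAA, the TATA box, which begins 35 bases before the start and was found in 13.6% of all windows. Of the 9 genes with a window, Cldn2 was the only one with either. The GC box, written GGGCGG, was found in 7 of the 9 genes and in 35.7% of all windows, among them Cldn3 (236 bases before the start) and Cldn4 (44 and 5 bases before it). The AP-1 motif, written TGANTCA, was found in 3 of the 9 genes (Cldn4, Cldn15 and F11r) and in 7.81% of all windows, and the Cldn4 window held 2, at 240 and 158 bases before the start. The GATA motif, written AGATAA, was found in 1 of the 9 (Tjp3) against 11.2% of all windows. The TCF/LEF motif, written CTTTGA, was found in 0 of the 9 against 16%. No matches overlapped in the windows shown. These are matches of letters, not sites of binding. The motifs were chosen after the differences were known, and Cldn7, Ocln and Tjp3 have 2 windows each.

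The make-up of the claudin transcripts was described within each library, as each gene's share of the CPM per kilobase of exon summed over all 19 claudin genes of the table, which needs no scaling between libraries. The 6 claudins described here made up 98.4% to 99.1% of this sum. Cldn7 held 41.6%, 43.4% and 43.4% in the Hopx-CreER and 43.2%, 43.2% and 44.2% in the Lgr5-CreER libraries, a nearly constant share. Cldn3 held 32.4%, 30.5% and 32.0% against 25.7%, 24.9% and 24.1%. Cldn2 held 6.32%, 6.41% and 5.01% against 10.6%, 12.8% and 12.1%. The share of Cldn3 was thus higher, and that of Cldn2 lower, in every Hopx-CreER library. Cldn15 held 16.0% to 16.3% against 16.8% to 17.7%, a share also lower in every Hopx-CreER library, by a smaller margin than that of Cldn2. Cldn23 held 1.47% to 1.95% against 0.540% to 0.740%. The sum itself was 2288, 2314 and 2840 CPM per kilobase in the Hopx-CreER and 2203, 2085 and 2224 in the Lgr5-CreER libraries. Every Hopx-CreER sum was above every Lgr5-CreER sum, with library 3 well above the rest. Unlike the shares, the sum depends on the TMM factors, which were 0.968, 0.972 and 0.943 in the Hopx-CreER and 1.03, 1.07 and 1.03 in the Lgr5-CreER libraries. These raise the Hopx-CreER sums and reduce the Lgr5-CreER sums, and without them the groups overlap.

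**Figure D2:**
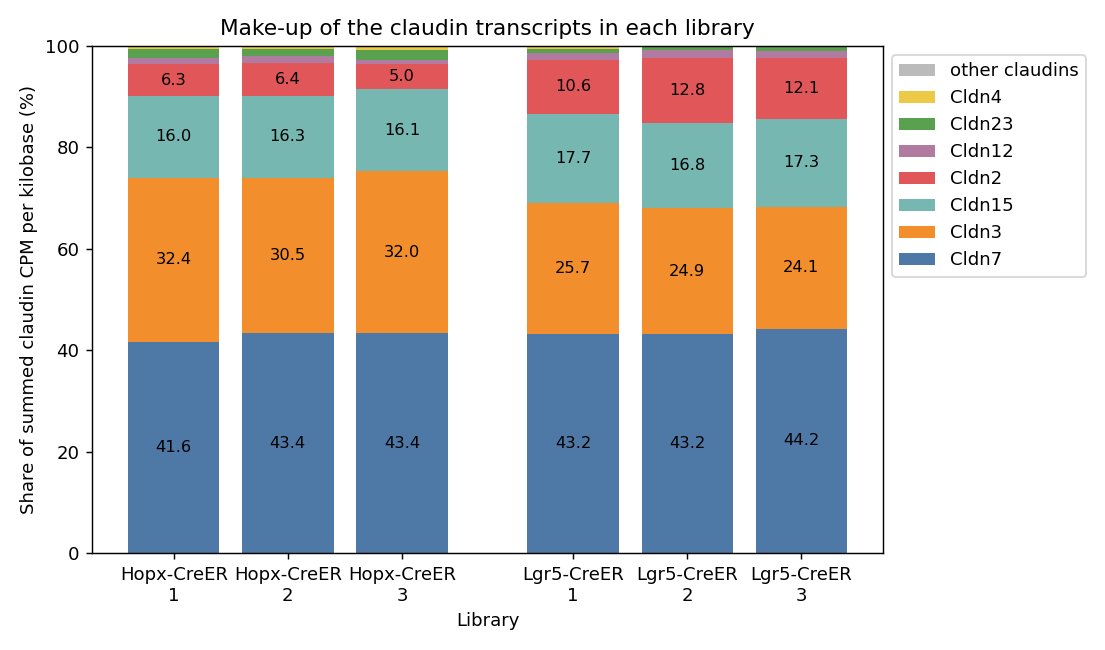
Share (percent, vertical axis) of each claudin in the summed claudin CPM per kilobase of exon, for the 3 Hopx-CreER and 3 Lgr5-CreER libraries (bars), with the 4 largest shares printed. Cldn2 (red) holds 5.01% to 6.41% in Hopx-CreER and 10.6% to 12.8% in Lgr5-CreER libraries, and Cldn7 (blue) holds 41.6% to 44.2% throughout.

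Of the other membrane proteins, Ocln (ENSMUSG00000021638.12; minus strand of chromosome 13, 100496507 to 100552718) was at 291, 258 and 174 CPM in the Hopx-CreER and at 342, 311 and 294 CPM in the Lgr5-CreER libraries. The groups were apart by a small margin, 291 against 294 CPM, and Hopx-CreER library 3 was well below the others. The log2 fold change was -0.39 ± 0.18, and -0.21 without that library. F11r (ENSMUSG00000038235.4; plus strand of chromosome 1, 171437535 to 171464603) was at 234, 249 and 269.6 CPM against 231, 184 and 227 CPM. These groups too were barely apart, and the log2 fold change was 0.23 ± 0.12.

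The scaffold genes differed from each other far more in level than between the groups. Tjp3 (ENSMUSG00000034917.7; minus strand of chromosome 10, 81273207 to 81291581) was at 489, 476 and 532 CPM in the Hopx-CreER and at 485, 457 and 458 CPM in the Lgr5-CreER libraries, with overlapping groups (log2 fold change 0.10 ± 0.10). Its last 40 bases overlap Apba3 on the opposite strand, which the unstranded libraries cannot tell apart. Tjp1 (ENSMUSG00000030516.14; minus strand of chromosome 7, 65296165 to 65527781) had 44, 12 and 13 counts in the Hopx-CreER and 43, 87 and 45 counts in the Lgr5-CreER libraries, or 3.31, 1.01 and 1.21 CPM against 2.88, 7.51 and 3.10 CPM. The groups overlapped, and the log2 fold change of -1.26 ± 0.56 ran from -1.99 without Hopx-CreER library 1 to -0.68 without Lgr5-CreER library 2. Per kilobase of exon, the ratio of Tjp1 to Tjp3 was 0.00323, 0.00101 and 0.00108 in the Hopx-CreER and 0.00282, 0.00782 and 0.00322 in the Lgr5-CreER libraries, and the groups overlapped. The sources used here do not say how reads were assigned to genes, and whether the low Tjp1 count reflects its RNA was not tested.

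Ordered by CPM per kilobase of exon, the genes stood in 1 order in both groups. In Lgr5-CreER cells these means were 946 ± 42.2 for Cldn7 (SD, n = 3), 540 ± 24.3 for Cldn3, 375 ± 21.9 for Cldn15, 256 ± 20.3 for Cldn2, 126 ± 4.26 for Tjp3, 80.4 ± 9.71 for F11r, 74.7 ± 5.71 for Ocln, 14.004 ± 2.55 for Cldn23, 6.32 ± 3.42 for Cldn4 and 0.576 ± 0.335 for Tjp1. Neighbours in this order did not overlap, except F11r and Ocln. In Hopx-CreER cells Cldn7 was at 1063 ± 148 and Cldn3 at 786 ± 107, while Cldn2, at 145 ± 3.14, overlapped Tjp3, at 134 ± 7.91, and Ocln, at 57.1 ± 14.3, overlapped Cldn23, at 43.3 ± 11.02. Both overlaps came from Hopx-CreER library 3, where Tjp3 (143) was above Cldn2 (142) and Cldn23 (55.5) above Ocln (41.3). In Hopx-CreER libraries 1 and 2, Cldn2 (145 and 148) was above Tjp3 (132 and 128). Ocln (69.0 and 61.1) was likewise above Cldn23 (40.3 and 34.0) in these libraries.

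The direction of Cldn2, Cldn3, Cldn4, Cldn23, Ocln, F11r and Tjp1 was the same under all 14 alternative settings. That of the 3 genes with little difference was not: Cldn7 was at -0.10 with GC content offsets and -0.13 with length offsets on the log2 scale, Cldn15 at -0.10 and -0.16, and Tjp3 at -0.18 with GC content offsets. With library totals alone, which shifted the median of all tested genes from -0.03 to -0.15, Cldn15 and Tjp3 were at -0.02. Cldn15 was at -0.03 without Hopx-CreER library 3.

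**Figure D3:**
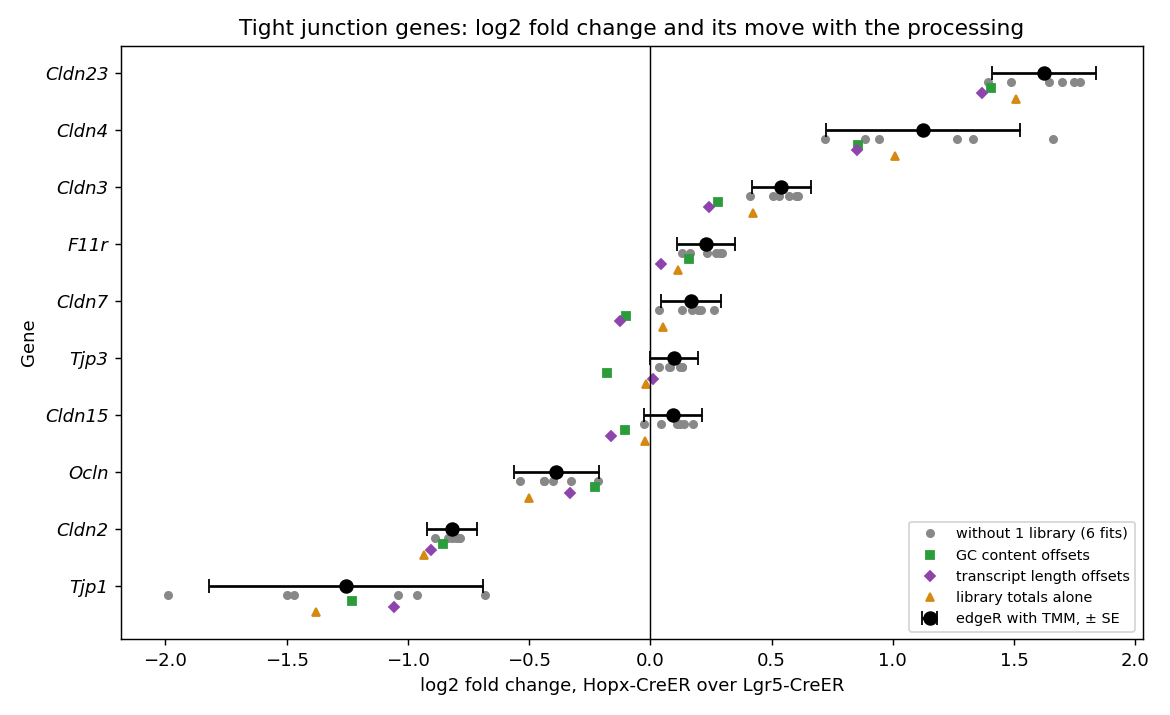
The log2 fold change of Hopx-CreER against Lgr5-CreER cells (horizontal axis), of the 10 genes by edgeR with TMM scaling (black, ± SE) and under other settings (coloured points, with each of the 6 fits without 1 library in grey). Cldn2 keeps to a narrow range from -0.94 to -0.79, while Cldn7, Cldn15 and Tjp3 cross 0.

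Other genes of the junction were read from 7 lists of 134 gene symbols in all, which hold none of the 10 genes above. Among the symbols, Pals1 and Eplin are other names of the listed Mpp5 and Lima1. Of 101 tested genes, 8 were higher and 5 lower in Hopx-CreER cells and 88 did not pass at an edgeR adjusted p under 0.05, a share of 12.9% against the 12.8% of all tested genes. The median log2 fold change was -0.08, against -0.03 over all tested genes. The junction genes as a whole were thus called about as often as other genes.

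Few further claudins were present. Of 24 listed genes 4 were tested, with a median of 0.13, and Cldn12 was the only non-member above 5 CPM among the numbered claudins (114 ± 19.1 against 137 ± 1.74 CPM; log2 fold change -0.26 ± 0.14, edgeR adjusted p 0.254). Cldn10, Cldn20 and Cldn34c1 were at 0 counts in all 6 libraries. The single call was Cldn9, with 22, 10 and 13 counts in the Hopx-CreER and 0, 1 and 1 in the Lgr5-CreER libraries, a ratio of 25.7 after scaling for library size (exact 95% interval 6.72 to 219, counting error only; edgeR adjusted p 0.00597). No listed claudin passed as lower, whether by edgeR at an unadjusted p under 0.05 (0 genes) or by DESeq2 (0 genes).

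Among 9 tested membrane proteins of the junction, 1 rose and 2 fell. Igsf5, a junctional adhesion molecule of the immunoglobulin family, was at 65.7, 69.4 and 80.0 CPM in the Hopx-CreER and at 44.6, 49.6 and 43.2 CPM in the Lgr5-CreER libraries (log2 fold change 0.65 ± 0.14, edgeR adjusted p 0.0145). Jaml, a related adhesion molecule, was at 36.4, 42.4 and 33.7 against 77.0, 66.9 and 69.4 CPM (-0.92 ± 0.14, edgeR adjusted p 0.00382). Esam, named for endothelial cells, was at 12.3, 14.8 and 13.6 against 25.3, 23.9 and 22.7 CPM (-0.82 ± 0.19, edgeR adjusted p 0.0207). In each the groups did not overlap. The remaining 6, such as the angulin Lsr (356 against 339 CPM) and the tricellulin gene Marveld2 (61.7 against 75.1 CPM), did not pass, and the list's median was 0.07. Ildr1 came closest to passing (33.9 ± 14.9 against 16.5 ± 0.36 CPM, 1.04 ± 0.30, edgeR adjusted p 0.0508), with groups that did not overlap. DESeq2 called it higher, for 2 higher and 2 lower in this list.

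Of 32 tested plaque and polarity genes, 3 rose and 1 fell, with a median of -0.29. Micall2, which acts with Rab13 in the recycling of occludin, was at 24.3, 23.3 and 31.3 CPM in the Hopx-CreER and at 12.2, 8.81 and 11.3 CPM in the Lgr5-CreER libraries (1.28 ± 0.22, edgeR adjusted p 0.00619). Llgl2, a basolateral polarity protein, rose by 0.58 ± 0.12 (352 ± 41.7 against 235 ± 13.3 CPM; edgeR adjusted p 0.0122), and Arhgef2, an activator of RhoA found at junctions, by 0.82 ± 0.20 (edgeR adjusted p 0.0291). Pard6g, a polarity adaptor, fell by 1.22 ± 0.34 (4.33 ± 1.51 against 10.2 ± 2.22 CPM; edgeR adjusted p 0.0459). Cingulin (Cgn), which binds the ZO proteins, was at 88.7 against 92.8 CPM and did not pass.

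No adherens junction gene passed among 14 tested, against 12.8% of all tested genes, and their median was -0.17. At an unadjusted edgeR p under 0.05, 0 were higher and 3 lower, and DESeq2 called 1 lower (Nectin4). With library totals alone 2 passed as lower, and with GC content offsets 1 passed as higher and 2 as lower. Cdh1 (E-cadherin), the gene of highest level in this list, was at 1579, 1310 and 1112 CPM in the Hopx-CreER and at 1764, 1690 and 1539 CPM in the Lgr5-CreER libraries, with overlapping groups (-0.32 ± 0.14, edgeR adjusted p 0.178). Of 10 tested desmosome genes, Perp, a desmosome membrane protein, rose by 0.46 ± 0.11 (190.0 ± 12.3 against 138 ± 8.62 CPM, edgeR adjusted p 0.0216). The others did not pass, and the list's median was -0.17. DESeq2 called 3 desmosome genes higher (Perp, Pkp3 and Evpl) and 0 lower. By edgeR, Pkp3 was at 0.41 ± 0.12 (edgeR adjusted p 0.0505) and Evpl at 0.75 ± 0.25 (edgeR adjusted p 0.0855).

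Of 17 tested partners, proteases and regulators of claudins, 2 rose and 1 fell, with a median of 0.01. Spint1, an inhibitor of the protease matriptase, rose by 0.61 ± 0.12 (528 ± 41.1 against 345 ± 36.1 CPM; edgeR adjusted p 0.00939). Hnf4g, a nuclear receptor of enterocytes, rose by 1.06 ± 0.20 (50.6 ± 11.9 against 24.3 ± 2.53 CPM; edgeR adjusted p 0.00976). Vdr, the vitamin D receptor, fell by 0.47 ± 0.11 (883 ± 71.8 against 1226 ± 62.8 CPM; edgeR adjusted p 0.0201). Cdx1 and Cdx2, homeobox factors of the intestine, were at 443 against 452 CPM and at 166 against 181 CPM and did not pass. Of 15 tested genes of the actin and myosin ring, Myh9, a heavy chain of non-muscle myosin II, fell by 0.65 ± 0.15 (156 ± 13.8 against 245 ± 46.0 CPM, edgeR adjusted p 0.0208). The others did not pass, and the list's median was 0.16. DESeq2 called 2 higher (Mylk and Myh14) and 1 lower (Myh9). By edgeR, Mylk was at 0.99 ± 0.28 (edgeR adjusted p 0.0516) and Myh14 at 0.46 ± 0.14 (edgeR adjusted p 0.0708), each with groups that did not overlap.

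The calls of Jaml and Micall2 held in all 14 alternative settings, and that of Cldn9 in the 13 that tested it. Other calls ended when fewer libraries were fitted or when the processing changed. With all 6 libraries, length offsets ended 5 of the 13 calls (Igsf5, Perp, Vdr, Spint1 and Myh9). GC content offsets ended 3 (Llgl2, Arhgef2 and Spint1), and library totals alone ended 2 (Arhgef2 and Perp). Spint1 lost its call with length and GC content offsets alone. Leaving out Lgr5-CreER library 1, 2 or 3 ended 6, 8 and 8 of the 13 calls, and leaving out Hopx-CreER library 1, 2 or 3 ended 2, 5 and 0. Esam, Arhgef2, Pard6g and Perp lost their calls whichever Lgr5-CreER library was left out, with little change in the log2 fold change of Esam (-0.78, -0.83 and -0.86 without library 1, 2 and 3), Arhgef2 (0.71, 0.88 and 0.86) and Perp (0.41, 0.49 and 0.49), while that of Pard6g was -1.21, -1.08 and -1.38. The number of calls among all genes fell likewise, from 1586 to 944, 723 and 882, so a lost call here does not show that 1 library carried the difference. Summing Lgr5-CreER libraries 2 and 3, whose columns have the same number, ended 8 of the 13 calls: Igsf5, Esam, Llgl2, Arhgef2, Pard6g, Perp, Vdr and Hnf4g. Arhgef2 kept its call in 6 of the 14 settings (edgeR or DESeq2 adjusted p up to 0.109), Perp in 7 (up to 0.219), Esam, Pard6g and Vdr in 9 (up to 0.0858, 0.169 and 0.0849), Igsf5, Llgl2 and Myh9 in 10 (up to 0.0892, 0.0744 and 0.107), Hnf4g in 11 (up to 0.0554) and Spint1 in 12 (up to 0.0782).

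**Figure D4:**
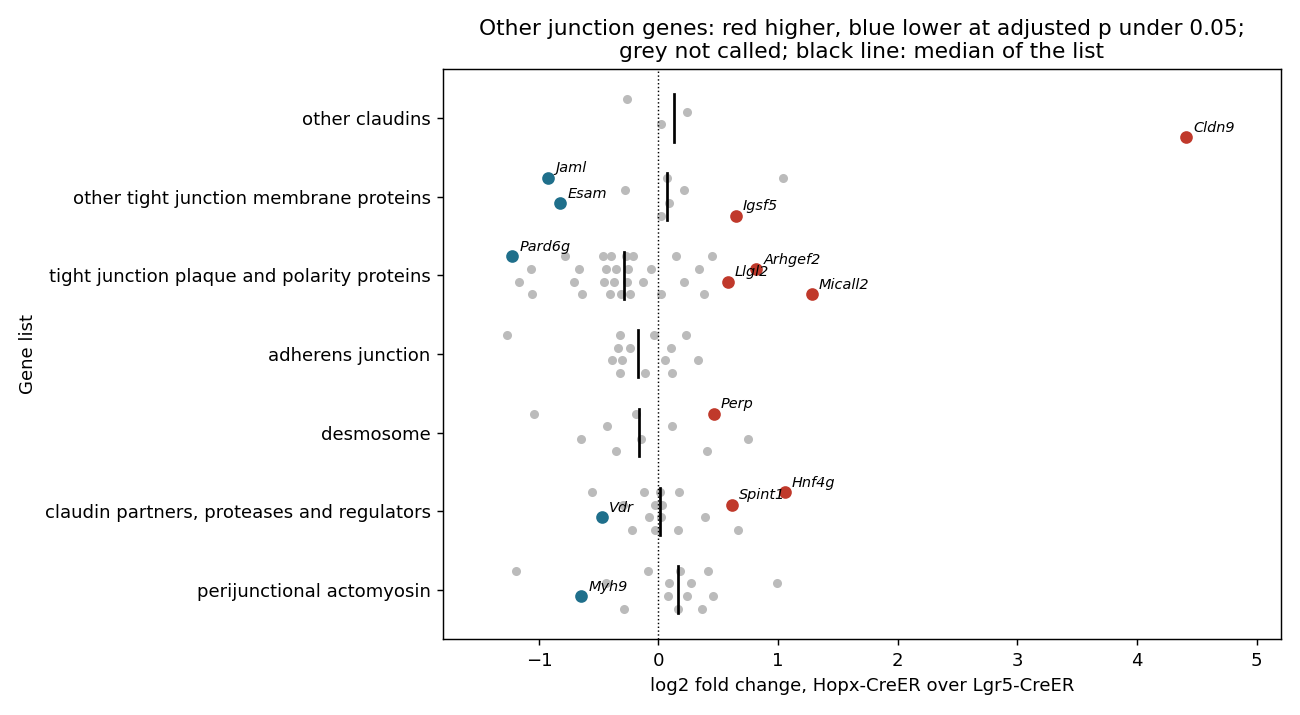
The log2 fold change of Hopx-CreER against Lgr5-CreER cells (horizontal axis), of the 101 tested genes of the 7 junction lists (rows; vertical offsets within a row carry no meaning), with the median of each list as a black line and the 13 called genes in colour. Of the 8 higher genes, Cldn9 lies far to the right on few counts, and the adherens junction row holds no called gene.

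Genes with a pattern like that of the most positive and the most negative of the 10 genes were sought among 8156 genes averaging 10 CPM or more, by the root mean square difference of log2 CPM centred over the 6 libraries. Closest to Cldn23 were Pdzd3, a PDZ protein of the brush border (0.101), Ttc22 (0.129) and Tmem86a (0.137), and 5 genes lay within 0.15. Pdzd3 was at 48.7, 42.4 and 70.5 CPM in the Hopx-CreER and at 16.9, 13.6 and 18.4 CPM in the Lgr5-CreER libraries, so it too was highest in Hopx-CreER library 3. Closest to Tjp1 were Uhrf1bp1l (0.308), Rnf169 (0.332) and Mrtfb (0.427), and 0 genes lay within 0.15. These likenesses describe 6 libraries and carry no test.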

How the data were processed

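RNA was measured in 6 libraries of sorted mouse crypt cells, 3 from each genotype. Per the labels' protocols, cells were sorted into TRIzol LS and libraries made with SMART-Seq v4 and Nextera XT, kits that keep no strand. What the authors deposited is a single table of raw counts, whole numbers per Ensembl gene. The submitters' processing notes name kallisto, edgeR and GRCh38 without roles; GRCh38 is a human build, the identifiers are mouse, and no source used here gives the counting step. Symbols, positions and exon lengths (union of exons) came from GENCODE M21 (GRCm38), which matched 23479 of 23565 identifiers.

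Groups were compared across all genes with edgeR 4.0.16 in R 4.3.3 (quasi-likelihood F-test, TMM, filterByExpr, Benjamini-Hochberg over 12439 genes, threshold 0.05). Each SE was derived from the fold change and its F statistic. The procedure was tested on simulated data. Alternatives were median-of-ratios factors, library totals alone, DESeq2 1.42.0, no low-count filter, at least 1 CPM in 3 libraries, spline offsets (5 degrees of freedom) for transcript GC content or length, summing the columns that share a number, and leaving out each library. The genes described and the lists were chosen with earlier results of these data known. Named from each list were called genes with at least 1 CPM in the higher group, up to 4 per direction by smallest p, or the most abundant gene where none was called. Other genes are named after their values were seen. Markers of cell types were read as 11 lists.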

Additional observations from a re-analysis of the deposited data

How the results depend on the processing

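No paired analysis was possible because the columns of the count table carry none of the replicate numbers of the labels. Among all genes, calls higher and lower in Hopx-CreER cells numbered 1176 and 410. They numbered 659 and 131 after summing the columns named with 1 number, and ran from 606 to 1275 and from 117 to 593 without 1 library. Lower calls numbered 729 with library totals alone, 694 with DESeq2, 1037 with GC content offsets and 746 with length offsets. The share of calls that were higher was 74.1%, against 56.3% with library totals alone, 50.2% with GC content offsets, 57% with length offsets, 66.9% with DESeq2 and 83.4% with the columns summed. Among the other junction genes, 8 higher and 5 lower calls became 4 and 2 with the columns summed, and 3 to 12 and 1 to 7 without 1 library. There were 14 higher with DESeq2 and 14 with no low-count filter, and 8 lower with library totals alone and 13 with GC content offsets. The cause was not tested.

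Moves of the tight junction genes were judged against each gene's own SD between libraries of a group, on the log2 scale. Noisy genes therefore pass easily. Cldn4 (SD 0.64), Cldn23 (0.32), Ocln (0.28) and Tjp1 (0.85) moved by less than this in all 14 alternatives. Cldn4 still ran from 0.72 to 1.66 and Tjp1 from -1.99 to -0.68. For Cldn2 (SD 0.086) and Tjp3 (0.068), far smaller moves exceeded it. Cldn2 moved to -0.94 with library totals alone and -0.91 with length offsets. With GC content and length offsets, Cldn3 moved to 0.28 and 0.24, Cldn7 to -0.10 and -0.13, Cldn15 to -0.10 and -0.16, and Tjp3 to -0.18 and 0.0098. Tjp3 moved to -0.019 with library totals alone, and F11r to 0.044 with length offsets. The low counts of Tjp1 (12 to 87) and Cldn4 (85 to 399) limit their precision.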
